A study of Glycine max with 18 samples.

Results

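The opening of the subjective day was examined as the difference between ZT28 and ZT24 in RNA-seq of the first trifoliate leaf of soybean. All 6 libraries came from wild-type Williams 82 (Ws82), the cultivar behind the soybean reference genome. Its seedlings grew under short days until this leaf opened and were then moved into constant light. Zeitgeber time (ZT) counts the hours of this free-running period, so ZT24 marked subjective dawn after 1 d without a dark phase, and ZT28 followed 4 h later with neither light nor temperature changed. The labels of the libraries count the same time points as 0 and 4 h, and they differ slightly from the paper in the temperature given for the constant light. Each time point had 3 biological replicates, L, M and R. How many plants entered a replicate is not given in the sources used here. Libraries were made from total RNA of whole leaves after removal of ribosomal RNA. A lower value can therefore come from fewer cells of a type or from less RNA per cell, and the data cannot tell these apart.

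Expression was measured as TPM, a share of the transcripts of a library that corrects for transcript length and sequencing depth. Of 55589 annotated genes, 20300 had a mean TPM of at least 1 at ZT24 or ZT28 and were tested. Of these, 16465 passed at both time points, 2592 at ZT24 alone and 1243 at ZT28 alone. Differences are given as ZT28 minus ZT24 on the log2(TPM + 1) scale, on which a gene with low TPM appears to change less than it did. They were tested with limma, with Benjamini-Hochberg adjustment over the 20300 genes. A gene is said to have risen or fallen where its adjusted p was under 0.05.

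In plants the circadian clock is a set of loops of transcription factors that repress each other at successive times of the day. In Arabidopsis, the MYB factors LHY and CCA1 accumulate around dawn and repress genes of the evening, and pseudo-response regulators (PRR) follow through the day and repress LHY in turn. The evening complex, which contains LUX, acts around dusk. In constant light these loops keep running, and the hours after subjective dawn are the time when dawn factors give way to the first PRR genes.

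The aligned sequence was 5.40 to 6.70 Gb per library at ZT24 and 5.88 to 7.13 Gb at ZT28. No marker gene of the leaf has an identifier in the sources used here, so the tissue was not checked against markers. Replicates of a time point were closer to each other than to the other time point. Across the tested genes, Pearson's r of log2(TPM + 1) was 0.971 to 0.984 between the ZT24 libraries and 0.867 to 0.904 between time points. At ZT28 it was 0.976 between L and R, but 0.933 between L and M and 0.954 between M and R. ZT28 M thus stood apart from its replicates, and it was the ZT28 library closest to each of the 3 ZT24 libraries. Genes share a library and are not independent replicates, so these values are descriptions. The libraries also differed in how much a few abundant genes took. The 100 genes with the highest mean held 67.1% to 71.6% of the gene TPM at ZT24 and 77.0%, 70.2% and 72.5% in ZT28 L, M and R. The median TPM of the tested genes was lowest in ZT28 L, at 1.92, and lay between 2.35 and 3.41 in the other 5 libraries.

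With TPM as deposited, more genes fell than rose over these 4 h. This order depended on the scale, as given in the next paragraph. Of the 20300 genes tested, 4448 (21.9%) differed between ZT24 and ZT28, with 3036 (15%) lower at ZT28 and 1412 (6.96%) higher. Most changes were moderate, with a median of −0.95 among the genes that fell and 0.97 among those that rose. A fall of at least 1 on the log2 scale was found for 1335 genes (6.58%) and a rise of that size for 657 (3.24%). Falls also outnumbered rises among the largest changes, with 218 against 99 genes past 2 and 56 against 19 past 3. After quantile normalization, which gives all 6 libraries the same distribution of values, these counts were 174 against 125 and 45 against 26. For 4134 of the 4448 genes, the 3 libraries of one time point did not overlap those of the other. Without regard to the test, but again with TPM as deposited, 4944 genes (24.4%) had all ZT28 libraries below all ZT24 libraries. In 2251 (11.1%) they lay above.

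The balance of all falls and rises rested on the scale. Over all 20300 genes, the median difference was −0.157 with TPM as deposited, and −0.003 after quantile normalization. The first value also moved with single libraries, to −0.045 without ZT28 L, −0.050 without ZT24 M and −0.246 without ZT24 R. On the quantile scale, 2744 genes (13.5%) fell and 2851 (14.0%) rose, so that rises made up 51.0% of the differences in place of 31.7%. The genes called with TPM as deposited were mostly called again. Of the 1412 genes that rose with TPM as deposited, 1379 rose after quantile normalization as well, and 2519 of the 3036 that fell did so again. These were 97.7% and 83.0% of the first lists and 48.4% and 91.8% of the second. No gene rose on one scale and fell on the other. Changes of at least 1 numbered 954 falls and 911 rises after quantile normalization. All 954 falls of that size and 651 of the rises were also of that size with TPM as deposited. How much of the median of −0.157 is scale was not tested, and the difference after quantile normalization is given beside the main ones.

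**Figure D1:**
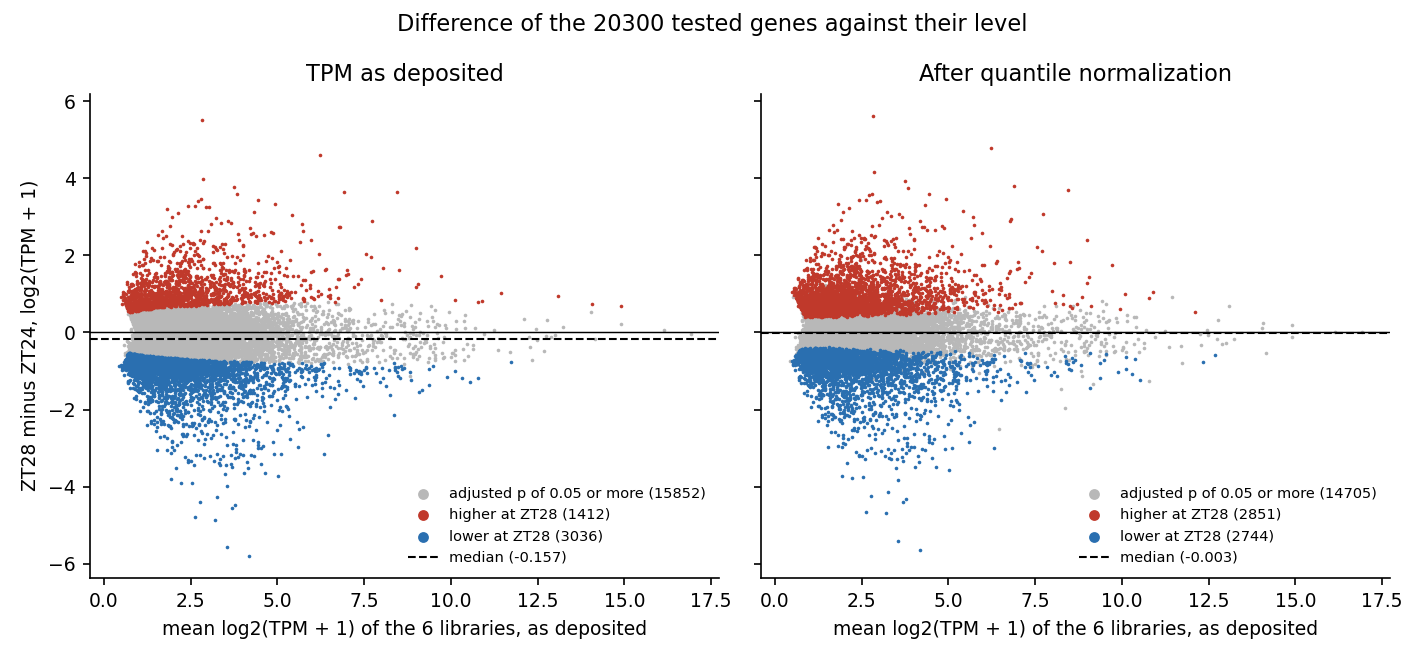
Difference between ZT28 and ZT24 (y axis, log2(TPM + 1)) of each of the 20300 tested genes against its mean level in the 6 libraries (x axis, log2(TPM + 1)), with TPM as deposited on the left and after quantile normalization on the right. Red points are genes that rose, blue points genes that fell, grey points the rest, and the dashed line is the median, at −0.157 on the left and −0.003 on the right.

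The spread behind these calls was shared between genes. With 3 libraries against 3, each gene had 4 residual degrees of freedom, to which limma's pooling over genes added 75.1, so that the standard errors mostly followed the level of a gene and had a median of 0.25. With the spread of each gene alone, an alternative chosen after seeing the data, 557 genes fell and 311 rose. Leaving out ZT28 M gave 4227 falls and 1635 rises, which held 95.2% of the genes that fell with all libraries and 89.1% of those that rose. The count of rises, 1412 with all 6 libraries, went down to 908 without ZT24 L, to 782 without ZT24 R and to 903 without ZT28 R. The pooling differed between these fits as well. The degrees of freedom it added were infinite without ZT28 M, ZT24 L or ZT28 R, so that no gene's own spread entered. Without ZT24 R they were 18.4.

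Genes at all levels of expression took part. The share that fell was 12.1% of the 7766 genes with a mean under 2 TPM, 15.6% of the 9368 genes between 2 and 10 TPM and 20.3% of the 2798 genes between 10 and 100 TPM. The share that rose went from 5.47% over 6.90% to 10.97% in the same classes. Among the 315 genes between 100 and 1000 TPM both shares were lower again, with 18.4% that fell and 8.57% that rose. Among the 53 genes with a mean of at least 1000 TPM, 6 fell and 7 rose.

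The largest rise was that of Glyma.15G105900, on the plus strand of chromosome 15 (8301661 to 8304992 in the build Gmax_Wm82_a2_v1). The deposited tables do not pair identifiers with names, so no function is given for it or for the other genes known by identifier alone. Its TPM was 0.036, 0.095 and 0.042 in ZT24 L, M and R and 31.3, 71.0 and 47.3 in ZT28 L, M and R. The gene was thus close to 0 in every library at subjective dawn and at 31.3 TPM or more 4 h later, without overlap. The difference was 5.51 (standard error, SE, 0.28, limma adjusted p = 1.4e-28) and 5.62 after quantile normalization. In the limma fit with the spread of this gene alone, the adjusted p was 0.020. Its mean TPM was 17.3 at ZT32 and at most 0.338 from ZT36 to ZT44, so that its high expression was limited to ZT28 and ZT32 among the 6 time points.

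Glyma.10G243800, on the plus strand of chromosome 10 (47219550 to 47221071), had the second largest rise and started from a higher level. Its TPM was 15.8, 14.0 and 13.1 in ZT24 L, M and R and 437, 283 and 402 in ZT28 L, M and R. All ZT28 libraries lay far above all ZT24 libraries, with ZT28 M the lowest of them. The difference was 4.59 (SE 0.30, limma adjusted p = 8.7e-22) and 4.79 after quantile normalization. In the limma fit with the spread of this gene alone, the adjusted p was 0.018. The mean was still 236 TPM at ZT32 and fell to 2.29 TPM at ZT36.

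The 20 largest rises, among genes that rose without overlap of the libraries, ranged from 2.99 to 5.51 and came from 11 chromosomes. The next gene outside this list rose by 2.97. Their mean TPM at ZT24 ran from 0.058 to 98.0 with a median of 1.60, and at ZT28 from 10.2 to 1295 with a median of 38.7. All 20 rose after quantile normalization as well, by 3.13 to 5.62. In 10 of the 20, ZT28 M was the lowest of the 3 ZT28 libraries. The rise was short in most of them. Of the 20 genes, 15 had the highest mean of the day at ZT28 and 3 at ZT32. The median of the 20 means was 19.9 TPM at ZT32. It was then 1.31 TPM at ZT36 and 1.57 TPM at ZT40, near the 1.60 TPM of ZT24, and lower at ZT44, at 0.823 TPM.

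The largest fall was that of Glyma.15G072400, on the minus strand of chromosome 15 (5540911 to 5542834). Its TPM was 110, 196 and 115 in ZT24 L, M and R and 0.780, 3.37 and 0.922 in ZT28 L, M and R. At ZT28 it was near 1 TPM in L and R and somewhat higher in M, far below all ZT24 libraries. The difference was −5.79 (SE 0.31, limma adjusted p = 2.3e-27) and −5.65 after quantile normalization. In the limma fit with the spread of this gene alone, the adjusted p was 0.030. The mean was 3.50 TPM at ZT32 and 48.1 TPM at ZT36, so that the gene was low for the 2 time points after dawn and had risen again by ZT36.

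Glyma.01G006000, on the plus strand of chromosome 1 (585972 to 587305), came next. Its TPM was 82.8, 85.8 and 69.4 in ZT24 L, M and R and 0.519, 0.974 and 0.614 in ZT28 L, M and R. The gene went below 1 TPM in each of the 3 ZT28 libraries, and ZT28 M was again the highest of them. The difference was −5.56 (SE 0.28, limma adjusted p = 1.4e-28) and −5.41 after quantile normalization. In the limma fit with the spread of this gene alone, the adjusted p was 0.012. The gene followed the same course, with a mean of 0.505 TPM at ZT32 and 40.3 TPM at ZT36.

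The 20 largest falls ranged from −3.43 to −5.79 and came from 13 chromosomes. The next gene outside the list fell by 3.43 as well. Their mean TPM at ZT24 ran from 13.5 to 140.3 with a median of 44.4, and at ZT28 from 0.031 to 9.06 with a median of 1.53. All 20 fell after quantile normalization, by 3.29 to 5.65. ZT28 M was the highest of the 3 ZT28 libraries in 14 of the 20. In the rest of the day these genes returned. Of the 20, 16 had their highest mean at ZT24, 3 at ZT36 and 1 at ZT44, and in 15 the mean at ZT36 was above those of ZT32 and ZT40. The median of the 20 means was 1.08 TPM at ZT32, 14.5 TPM at ZT36, 11.7 TPM at ZT40 and 15.3 TPM at ZT44. A mean at ZT36 above both its neighbours was found in 46.0% of all genes that fell and in 35.99% of all tested genes.

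**Figure D2:**
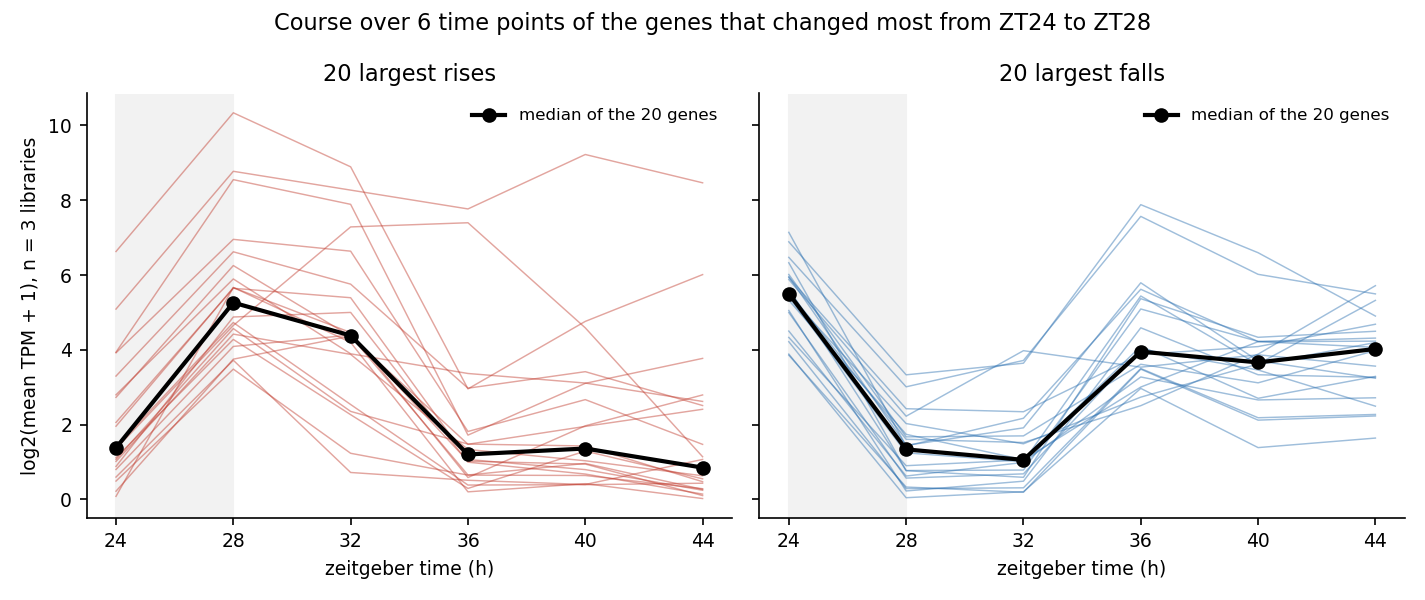
Mean of the 3 libraries of each time point, as log2(mean TPM + 1) (y axis), from ZT24 to ZT44 (x axis, h) for the 20 genes with the largest rise (left) and the 20 with the largest fall (right). Thin lines are single genes, black points the median of the 20, and the grey band spans ZT24 to ZT28, whose difference chose the genes. Rises were mostly over by ZT36, where the median gene was at 1.31 TPM, while the genes that fell stayed low at ZT32 and had a median of 14.5 TPM at ZT36.

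A few genes went from one end of the range to the other. The 3 libraries of ZT24 were all under 1 TPM and those of ZT28 all at 5 TPM or more in 6 genes. The reverse held for 32 genes, from 15 chromosomes. All 6 and all 32 were past the test, but these limits, set on the same libraries, pick large differences, so this adds no support. The 6 genes had their highest mean at ZT28. Only 1 of them still averaged 5 TPM or more at ZT32, and none did from ZT36 to ZT44. Of the 32 genes, none averaged 5 TPM at ZT32, whereas 19 did at ZT36, 12 at ZT40 and 9 at ZT44. All these counts, also those of 6 and 32 genes, were made with TPM as deposited and not repeated after quantile normalization. The shares of all tested genes at these levels were not counted. Values at ZT32 were low over many genes. With TPM as deposited, 46.7% of all tested genes were lowest at ZT32, against 20.5% after quantile normalization over all 18 libraries. In ZT32 R, 14263 genes reached 1 TPM, against 17369 in ZT32 L and 18306 in ZT32 M. The part of this in the counts at ZT32 was not tested.

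Placed in the whole day, genes that rose were mostly genes of the subjective day. Of the 1412 genes, 55.0% had their highest mean at ZT28 and 20.9% at ZT32, against 9.80% and 4.73% of all tested genes. After quantile normalization over all 18 libraries, these shares were 49.9% and 40.9%, against 14.3% and 21.3% of all tested genes. Of the 3036 genes that fell, 39.8% were highest at ZT24, against 13.5% of all tested genes. Their share highest at ZT36, 29.4%, was near the 29.6% of all tested genes. At ZT40 it was 14.5%, against 31.3%, and at ZT44 15.5%, against 11.04%. On the quantile scale, over all 18 libraries, 43.5% were highest at ZT24, against 13.9%, and 27.7% at ZT36, against 24.7%. The share at ZT40 was then closer to that of all tested genes, at 5.70% against 9.46%. At ZT44 the genes that fell had 19.04%, against 16.36%. Their lowest mean came at ZT28 in 33.1% and at ZT32 in 49.2%, against 13.8% and 46.7% of all tested genes, so that the share at ZT32 was near that of all genes. After quantile normalization 46.7% were lowest at ZT28 and 28.3% at ZT32, against 18.5% and 20.5%. ZT24 and ZT28 themselves chose these genes. No gene that rose was highest at ZT24, and none that fell was highest at ZT28. The shares of a group add up over the time points, so those at the later 4 time points are not free of the choice either.

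**Figure D3:**
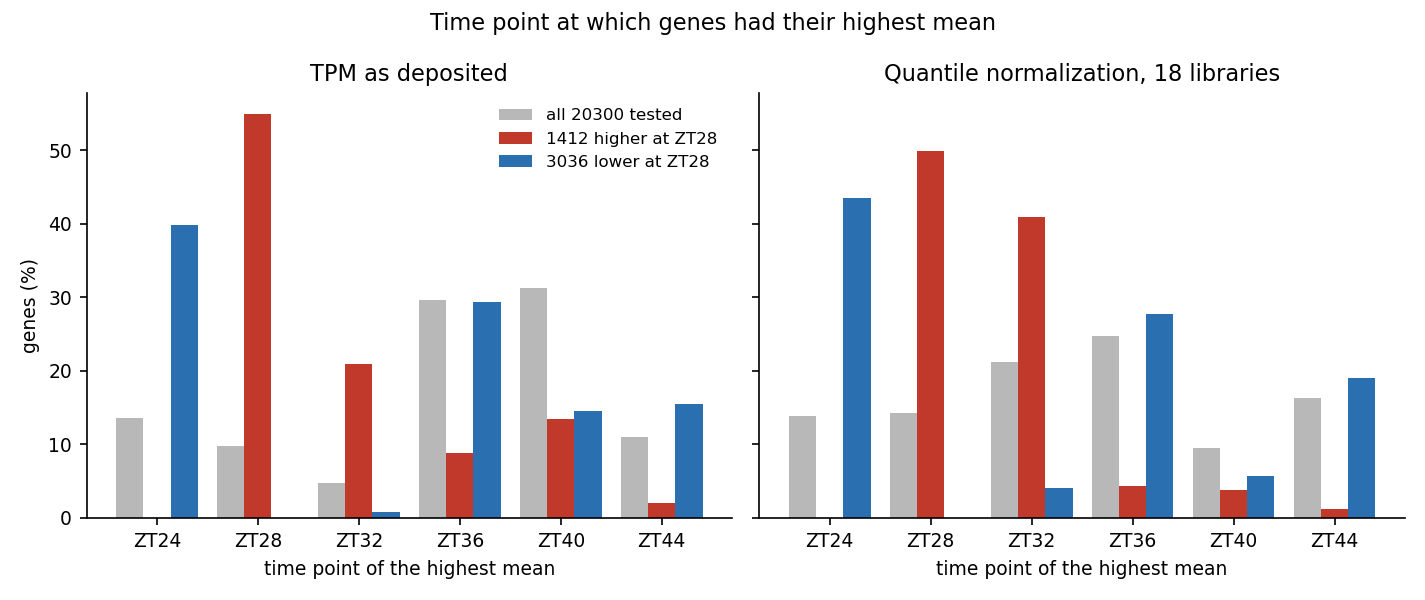
Share of genes (y axis, %) whose highest mean of the 6 time points fell at each time point (x axis), for all 20300 tested genes (grey), the 1412 that rose (red) and the 3036 that fell (blue), with TPM as deposited on the left and after quantile normalization on the right. Genes that rose were highest at ZT28 in 55.0% on the left and 49.9% on the right.

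The text of the paper pairs 8 genes of the clock and of light responses with identifiers. Of these 8, 7 reached a mean of 1 TPM at ZT24 or ZT28 and were tested. At ZT28, 4 of the 7 were lower, beside 15% of all tested genes, and the other 3 did not pass the test by limma. The genes were picked by the study, so the counts are descriptions.

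The 4 genes that fell were the LHY genes, which encode MYB factors. *GmLHY1a*, on chromosome 16 (1526133 to 1539596), is one of 4 soybean copies of LHY, the factor that represses evening genes. Its TPM was 228, 221 and 187 in ZT24 L, M and R and 48.5, 115 and 74.9 in ZT28 L, M and R. The time points did not overlap, and ZT28 M lay nearest to ZT24. The difference was −1.48 (SE 0.31, limma adjusted p = 1.4e-04), which left 37.5% of the mean at ZT24. *GmLHY1b*, on chromosome 7 (4102968 to 4114174), followed it closely at a lower level. Its TPM was 74.6, 64.1 and 54.1 at ZT24 and 16.0, 34.4 and 20.7 at ZT28, in the same order of replicates. The difference was −1.46 (SE 0.30), and 36.9% of the mean was left.

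The other pair of LHY genes had larger falls, slightly so in *GmLHY2a* and more so in *GmLHY2b*. *GmLHY2a*, on chromosome 19 (50396380 to 50409947), had 49.2, 48.3 and 43.99 TPM at ZT24 and 8.29, 30.9 and 11.3 TPM at ZT28 in L, M and R. ZT28 M was well above its replicates and still below all ZT24 libraries. The difference was −1.65 (SE 0.31, limma adjusted p = 2.9e-05). *GmLHY2b*, on chromosome 3 (45502100 to 45510812), had 106, 108 and 102 TPM at ZT24 and 11.6, 39.3 and 18.1 TPM at ZT28. Its ZT24 libraries were even, and ZT28 M was again the highest of the ZT28 libraries, without overlap. The difference was −2.32 (SE 0.32, limma adjusted p = 1.0e-08), and 21.9% of the mean at ZT24 was left, the lowest share of the 4 LHY genes.

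After quantile normalization the 4 LHY genes differed by −1.30, −1.31, −1.49 and −2.20, in the order given. Without ZT28 M the falls were larger, at −1.79, −1.75, −2.17 and −2.78. With the spread of each gene alone, their adjusted p was 0.113, 0.101, 0.173 and 0.089, so that the calls rested on the spread pooled over genes, while the ZT28 libraries lay below the ZT24 libraries in all 4 genes. The call of *GmLHY2a* was also lost without the filter on low values, at an adjusted p of 0.072. The 4 genes are close copies, and reads shared between them could have been divided either way. How much was shared was not measured. All 4 had means of at most 12.5 TPM at ZT32 and were lowest at ZT36, at 0.18 to 2.01 TPM.

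PRR5 is a pseudo-response regulator that represses dawn genes in Arabidopsis. *GmPRR5d*, on chromosome 7 (4201368 to 4206174), was already expressed at dawn. Its TPM was 23.8, 27.3 and 21.1 in ZT24 L, M and R and 25.9, 55.7 and 41.2 in ZT28 L, M and R. ZT28 L lay within the ZT24 range and the other 2 above it. The difference of 0.69 (SE 0.30, limma adjusted p = 0.094) did not pass the test. It passed after quantile normalization, at 0.83 (limma adjusted p = 0.015), and without ZT28 L, at 0.97 (adjusted p = 0.0098). Its mean was highest at ZT28, at 41.0 TPM, and 15.2 TPM at ZT32. *GmPRR5d* lies 87.2 kb from *GmLHY1b*, which fell over the same 4 h.

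The LUX genes, whose Arabidopsis counterpart belongs to the evening complex, were low at both time points. *GmLUX1* had 0.034 to 0.151 TPM at ZT24 and 0.032 to 0.243 TPM at ZT28, under the limit for a test. *GmLUX2* had 1.08, 1.31 and 0.910 TPM in ZT24 L, M and R and 0.550, 0.579 and 0.553 TPM in ZT28 L, M and R. All ZT28 libraries were below all ZT24 libraries, but the difference of −0.42 (SE 0.21, limma adjusted p = 0.141) did not pass the test. Both genes had their highest mean at ZT36, with 1.50 TPM for *GmLUX1* and 10.8 TPM for *GmLUX2*.

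*GmPIF4* encodes a basic helix-loop-helix factor that promotes growth and is controlled by light in Arabidopsis. It had 14.2, 15.6 and 11.2 TPM in ZT24 L, M and R and 8.26, 15.8 and 9.98 TPM in ZT28 L, M and R. The ranges overlapped, with ZT28 M above all other libraries, and the difference of −0.28 (95% interval −0.85 to 0.29, adjusted p = 0.520 from limma) did not pass the test.

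**Figure D4:**
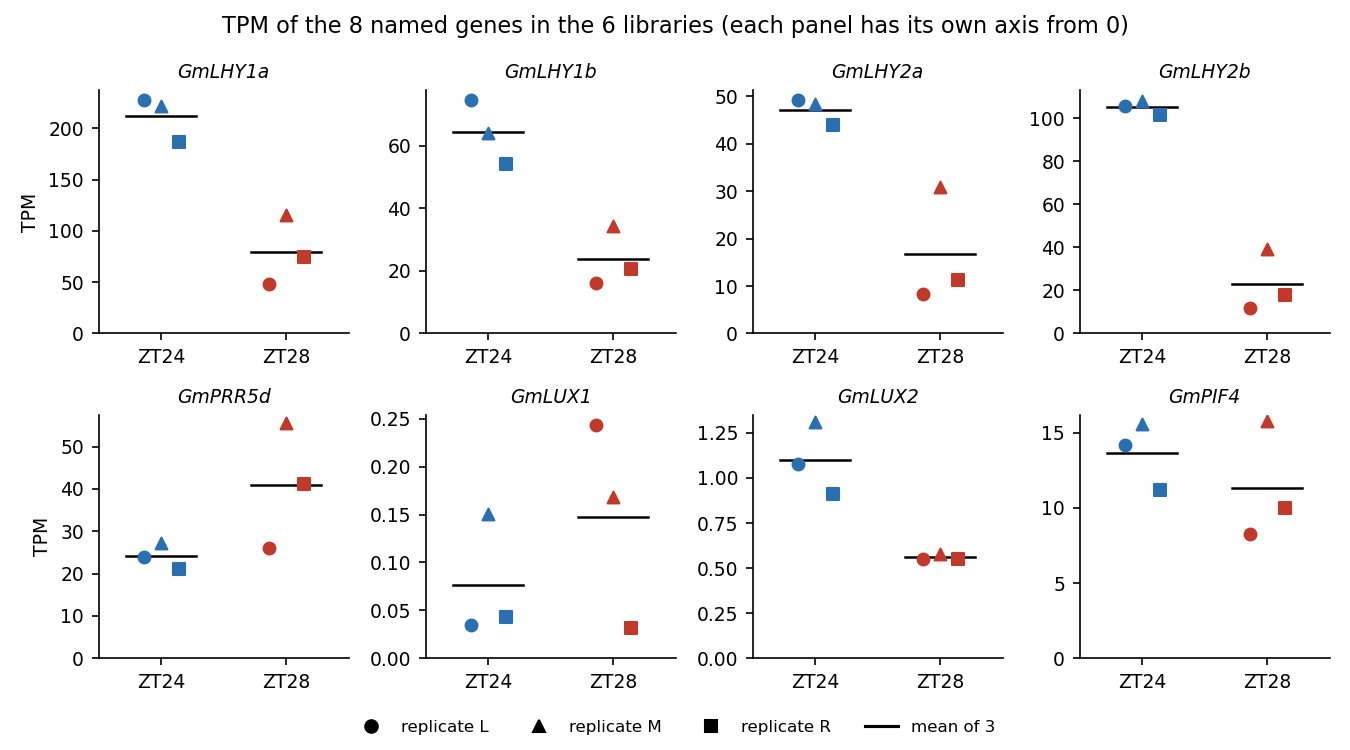
TPM (y axis, each panel with its own scale from 0) of the 8 named genes in the 3 libraries of ZT24 (blue) and the 3 of ZT28 (red), with L as circles, M as triangles and R as squares and the mean of 3 as a line. ZT28 M was the highest ZT28 library in all 7 tested genes, such as *GmLHY2b* with 39.3 TPM and *GmPRR5d* with 55.7 TPM in M.

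ZT28 M was the highest of the ZT28 libraries in all 7 tested named genes, and in 6 of them after quantile normalization. To see how far each ZT28 library had moved across the genome, it was compared with the other 2 over genes that had changed by at least 1 without it. The choice of genes enlarges the difference of the other 2 libraries, and all 3 are measured against the same ZT24 mean, so the values are descriptions to be set beside each other and were not tested. Over the 1785 genes that fell in L and R, ZT28 M had a median of 63.6% of their difference. Over the 714 genes that rose in L and R, it had a median of 84.8% of their difference. For ZT28 L the median was 114% of the difference of M and R for falls, over 1081 genes, and 76.0% for rises, over 799 genes. For ZT28 R the medians were 98.7% for falls and 111% for rises. For falls the lowest of the 3 values was thus that of ZT28 M, and for rises that of ZT28 L. The share of the 100 highest genes, given above, was lowest in ZT28 M among the ZT28 libraries and highest in ZT28 L, and its part in this was not tested.

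**Figure D5:**
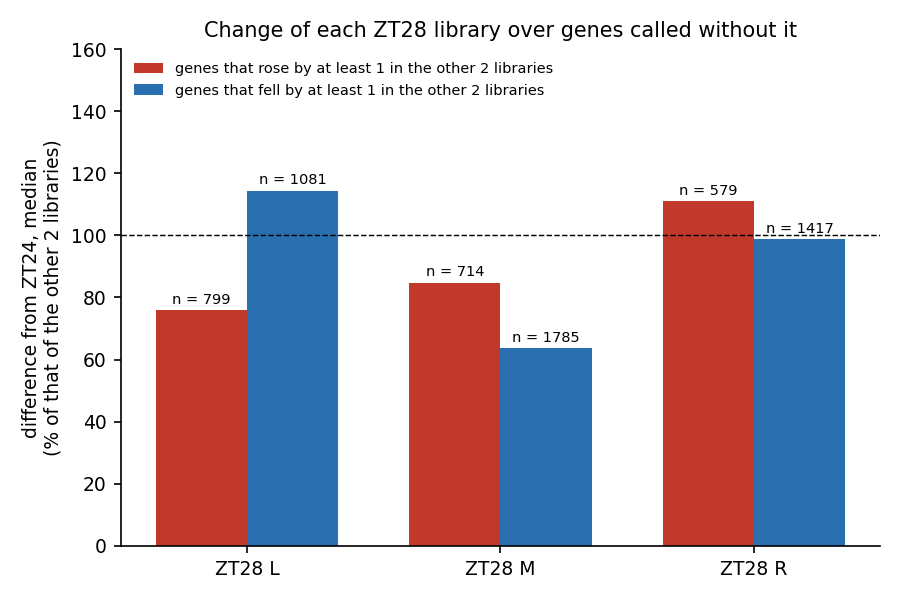
Median difference of each ZT28 library (x axis) from the ZT24 mean, as % of the difference of the other 2 ZT28 libraries (y axis, from 0), over genes that rose (red) or fell (blue) by at least 1 in a fit without the library shown, with the number of genes above each bar. ZT28 M had 63.6% of the fall and 84.8% of the rise of its replicates, and the dashed line marks 100%.

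The most abundant genes were called at shares near those of all tested genes. Of the 100 genes with the highest mean TPM, 15 fell and 9 rose, beside 15% and 6.96% of all tested genes. The gene with the largest rise in mean TPM has an annotated length of only 159 bp and lies on the minus strand of chromosome 2 (45149237 to 45149395). It had 23469, 30386 and 19235 TPM in ZT24 L, M and R and 54870, 26447 and 40302 TPM in ZT28 L, M and R. ZT28 L and R lay above the ZT24 libraries, while ZT28 M lay among them. The difference of 0.70 (SE 0.25, limma adjusted p = 0.033) passed the test, but was 0.20 (adjusted p = 0.448) after quantile normalization and 0.45 (adjusted p = 0.267) without ZT28 L. It also missed the threshold without ZT24 L, ZT24 M, ZT24 R or ZT28 R, and passed it without ZT28 M, at 0.97. In ZT28 L this gene alone held 8.03% of the gene TPM, against 3.06% to 4.43% at ZT24, 3.74% in ZT28 M and 5.75% in ZT28 R. The gene with the largest fall in mean TPM was the most abundant gene of all, at 125622 TPM at ZT24 and 122308 TPM at ZT28, and it differed by −0.04 (adjusted p = 0.930 from limma).

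Genes that changed were found along all 20 chromosomes. The share of tested genes that fell ran from 12.8% on chromosome 3 to 19.8% on chromosome 1, and the share that rose from 6.01% on chromosome 1 to 8.64% on chromosome 18. Neighbouring genes were compared over the 8429 pairs of annotated genes that lie next to each other and were both tested. A gene that fell by at least 1 had a neighbour that did so too in 16.6% of its pairs, beside 6.92% of all places in these pairs. For genes that rose by at least 1 the values were 6.10% and 3.30%. Both genes fell in 97 pairs and both rose in 17, and in 33 pairs one rose and the other fell. By arrangement, the share for falls was 19.7% for neighbours on the same strand, beside 7.20% of all places in such pairs. It was 18.9%, beside 6.26%, for pairs that point away from each other. For pairs that point towards each other it was 8.19%, near the 6.98% of all their places. Runs of 3 neighbouring genes that all fell by at least 1 occurred at 10 places, one of them beginning with Glyma.01G006000, and a run of 3 that rose at 1 place. Neighbours can be duplicates of one gene that share reads, and 9 of the 97 pairs overlap in their coordinates. The part of either in these values was not tested. For falls of at least 1 after quantile normalization, the share over all pairs was 14.8%, beside 4.965% of all places. For rises it was 7.40%, beside 4.49%.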

How the data were processed

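The authors trimmed the reads with *Trimmomatic* (version 0.39), aligned them to Gmax_Wm82_a2_v1 with *HISAT2* (version 2.2.1) and quantified them with *StringTie*. The deposited tables give coverage, FPKM and TPM per annotated gene, together with assembled loci. The deposited TPM is a signal on the scale of those loci, and the annotated genes came to 62.9% to 72.2% of the sum of those loci in the 6 libraries. Lines with the same identifier were summed. Coverage and FPKM, as deposited, gave the aligned sequence. The tables hold no read counts, so depth gives no counting interval. Samples were grouped by the labels.

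Genes that averaged 1 TPM or more at either time point were tested on log2(TPM + 1), two-sided, by the moderated test of limma 3.58.1 (R 4.3.3), in which eBayes used a trend, and all genes were adjusted together by Benjamini-Hochberg. Python 3.11.15, pandas 2.3.3 and matplotlib 3.10.9 made the tables and figures. Named in the text are the 8 genes with identifiers in the text of the paper, the 2 largest rises and the 2 largest falls among called genes without overlap, and the genes with the largest rise and fall in mean TPM. The rule also took in genes whose identifiers stand only in pictures of the paper's figures. These were dropped after their values had been seen, since nothing is taken from the pictures. The genes, lists and tests were chosen with earlier results of these data known. Alternatives to the scale were quantile normalization, FPKM, a pseudocount of 0.1 and TPM rescaled over annotated genes or without the 100 highest. Alternatives to the fit were all 18 libraries, a replicate block, no trend, each library left out in turn, and the filter raised to 5 TPM or dropped. The spread of each gene alone and the neighbours after quantile normalization were added after seeing the data.

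None of the identifiers occurs in the reference table used here, which covers 59048 genes of Glycine_max_v4.0, so lists by annotated product, markers of other tissues and promoter motifs were not run, and no sequences are printed.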

Additional observations from a re-analysis of the deposited data

How the results depend on the processing

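The count of rises, 1412 with all settings as described, moved to 831 with a filter of at least 5 TPM, 679 without a filter, 2851 after quantile normalization, 2290 with TPM rescaled without the 100 highest genes and 311 with the spread of each gene alone. The count of falls, 3036, moved to 1624 with at least 5 TPM, 1203 without a filter and 557 with the spread of each gene alone. The 2 filters change the number of genes tested. For the other settings, the cause was not tested. Leaving out 1 library gave 782 to 1635 rises and 2131 to 4227 falls. In all these fits with TPM as deposited, falls outnumbered rises. Median correlations of 0.973 within and 0.881 between time points became 0.933 and 0.773 with Spearman's rho. Quantile normalization over 18 libraries moved the share of risen genes highest at ZT28 from 55.0% to 49.9% and that of fallen genes highest at ZT24 from 39.8% to 43.5%.

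Leaving out 1 library turned the difference of the gene with the largest fall in mean TPM, which had not passed the test, from −0.133 without ZT24 M to 0.071 without ZT24 L and 0.025 without ZT28 L. Of 217 comparisons of 13 single genes with their alternatives, 193 kept direction and side of the threshold, 19 lost the call, 3 gained it and 2 turned. The 2 largest rises and the 2 largest falls on the log2 scale kept their calls under all alternatives run, while the gene with the largest rise in mean TPM lost its call under 14 of them.

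The letters L, M and R were checked for pairing. Deviations of the same letter at ZT24 and ZT28 from their time-point means correlated at 0.018, −0.189 and −0.120 across genes. Unlike letters ran from −0.235, for ZT24 R with ZT28 L, to 0.264, for ZT24 R with ZT28 M. The same letters thus stood no closer than unlike ones, but 3 libraries a time point cannot settle whether the letters pair the libraries. A replicate block gave 1410 rises and 3077 falls.

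Depth is known only as aligned sequence, and values under 1 TPM rest on few reads of unknown number. Reads shared between close copies of a gene, and reads of overlapping genes where the counting by strand is not stated, limit single values. The p-values of the main fit rest on the spread between 3 replicates a time point pooled over genes, and little on the spread of the single gene.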
